A study of Mus musculus with 9 samples.

Results

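The 37 genes described here belong to the antioxidant programme controlled by the transcription factor Nrf2 and to the glutathione, thioredoxin and NADPH systems. They were chosen by gene name, and all 37 were found among the 23798 genes of the deposited table, through 51 RefSeq transcripts. The series measured RNA from mouse brain with libraries that read transcripts from the 3′ end, and the RNA was extracted with a kit meant for FFPE tissue. It had 3 groups of 3 libraries: mice of the genotype labelled TG given NM-101, TG mice given placebo, and wild-type (WT) mice given placebo. The labels name oligodendrocytes as the cell type, and the title of the study speaks of alpha-synuclein of neuronal origin. The sources used here do not give the transgene, its promoter, the age of the mice or the dose and duration of NM-101, nor do they state that the libraries came from separate animals, so the p-values measure the spread between these libraries, which may be technical.

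Nrf2, encoded by Nfe2l2, is held in the cytoplasm and marked for degradation by Keap1, a sensor whose cysteines react with oxidants and electrophiles. When Keap1 is modified, Nrf2 accumulates, pairs with small Maf proteins and binds antioxidant response elements in the promoters and enhancers of its targets. Those targets make glutathione, reduce peroxides, conjugate reactive compounds and supply NADPH. In the brain the programme is known to be more active in astrocytes than in neurons, and oligodendrocytes, rich in iron and lipid, are known to be sensitive to oxidative damage.

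The core of the antioxidant response element was looked for as TGACNNNGC and, separately, as TGAGNNNGC, on both strands, in windows from 250 bases before to 50 bases after each start site (RefSeq, GRCm38.p6). Of the 37 genes, 32 had a window, and Gclc, Gsr, Prdx6, Gsta4 and Sod3 had none. TGACNNNGC was found for 12 of the 32 genes (37.5%), against 14.0% of all 27025 genes with a window, and TGAGNNNGC for 7 (21.9%), against 19.8%. The genes were listed for their known biology, many of them because they are Nrf2 targets, so the share is a description of the list. The stretches show 1 match before the start site for each of 6 genes whose values are given later, namely Nfe2l2 itself, a peroxiredoxin, sulfiredoxin, a subunit of the glutathione-making ligase and a pair of glutathione transferases. They are written 5′ to 3′ on the gene's strand, with the match in capitals, in the orientation in which it lies there.
Nfe2l2 (chr2:75704874-75704913, minus strand): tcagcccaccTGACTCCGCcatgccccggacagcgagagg
Prdx1 (chr4:116685445-116685495, plus strand): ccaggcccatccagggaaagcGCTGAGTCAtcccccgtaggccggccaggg
Srxn1 (chr2:152105458-152105508, plus strand): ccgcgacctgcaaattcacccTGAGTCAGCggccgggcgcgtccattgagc
Gclm (chr3:122245402-122245452, plus strand): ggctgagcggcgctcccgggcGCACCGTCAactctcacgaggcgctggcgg
Gstm5 (chr3:107895791-107895841, plus strand): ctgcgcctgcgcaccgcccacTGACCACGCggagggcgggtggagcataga
Gstp1 (chr19:4037957-4038007, minus strand): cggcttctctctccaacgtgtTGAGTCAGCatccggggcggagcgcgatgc
The match in Srxn1 begins 45 bases before its start site, that of Gstm5 42 bases and that of Gstp1 74 bases before. A match is a run of letters and not a measured binding site.

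The WT columns held counts and the TG columns log2 values, which were read from their behaviour as log2(FPKM + 1). WT libraries held 10612290, 14041951 and 11774367 counts, and steps in the low TG values implied 9160000 to 12940000 reads per TG library. In libraries labelled as oligodendrocytes, neuronal markers were abundant: the synaptic gene Snap25 lay between 9.96 and 10.27 on the log2(FPKM + 1) scale in the 6 TG libraries, and the myelin gene Mbp between 9.93 and 11.62. TG placebo replicate 1 stood apart from replicates 2 and 3. Its 12 oligodendrocyte markers summed to 4882.3 FPKM, against 1660.4 and 1593.2 in replicates 2 and 3. Its 6 tested nuclear-retained RNAs summed to 197.1 FPKM, against 1138.8 and 1378.9, and its 6 tested choroid plexus markers to 4909.9 FPKM, against 28.1 and 33.1. The TG NM-101 libraries differed as well. Replicate 2 had 1116.2 FPKM of choroid plexus markers, against 77.5 and 102.6 in replicates 1 and 3. Oligodendrocyte markers summed to 3739.8, 2076.9 and 2761.5 FPKM in TG NM-101 replicates 1, 2 and 3. In bulk RNA, fewer cells of a type and less RNA per cell cannot be told apart.

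In the WT libraries the 37 genes together took 0.346%, 0.381% and 0.371% of all counts. Glutathione peroxidases and transferases, with Esd, held the largest part of this, at 0.133%, 0.152% and 0.146% of the library, and thioredoxins and peroxiredoxins 0.111%, 0.123% and 0.122%. Gpx4, the peroxidase that reduces lipid peroxides in membranes, had 4110, 6423 and 5221 counts. Nfe2l2 had 171, 261 and 191 counts, or 16.1, 18.6 and 16.2 when scaled to library size (CPM), and Keap1 had 947, 1277 and 1150, or 89.2, 90.9 and 97.7 CPM.

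Most of the 37 genes varied little among the WT libraries. The coefficient of variation of CPM was lowest for Sod1, the cytosolic superoxide dismutase, at 1.12%, with 236.7, 238.1 and 233.0 CPM. It was highest for Nqo1, a quinone reductase and a standard Nrf2 target, and for Slc7a11, the cystine importer that feeds glutathione synthesis. Nqo1 had 107, 78 and 64 counts (10.1, 5.56 and 5.44 CPM, a coefficient of variation of 37.7%), and WT replicate 1 stood above the others. Slc7a11 had 406, 877 and 389 counts (38.3, 62.5 and 33.0 CPM, 35.2%), and WT replicate 2 was the high library.

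**Figure D1:**
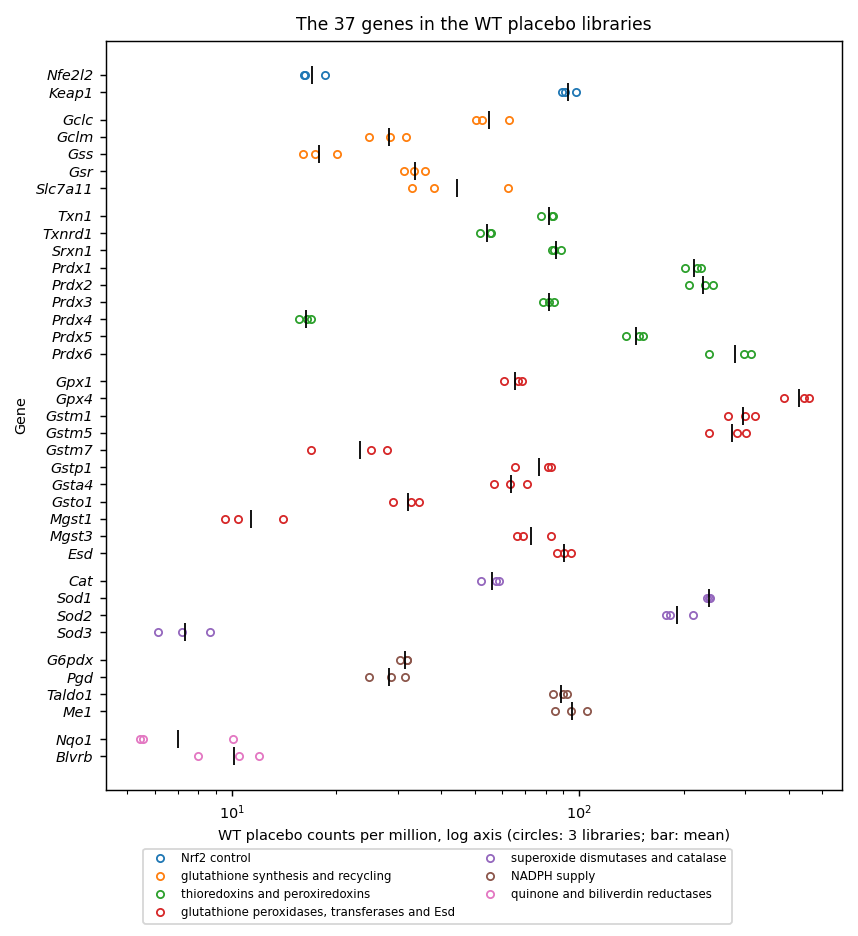
CPM of the 37 genes in the 3 WT placebo libraries (log axis), grouped by role; circles are libraries and the black bar is their mean. The circles of Sod1 lie nearly on top of each other, between 233.0 and 238.1 CPM, while those of Nqo1 run from 5.44 to 10.1 CPM.

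The effect of NM-101 within the TG genotype was read from TG NM-101 against TG placebo. None of the 37 genes passed the test across all genes (limma, Benjamini-Hochberg adjusted p under 0.05), where 0.134% of 12699 genes did (17 genes, 13 higher and 4 lower, against 1 higher and 3 lower with median-ratio scaling and 3 higher and 4 lower with quantile normalization). The smallest limma adjusted p among them was 0.0823, for Gstm1. At an unadjusted p under 0.05, 9 of the 37 were higher under NM-101 (24.3%, against 10.7% of all genes) and 1 was lower (2.70%, against 4.17%). The count of 9 was 7 with median-ratio scaling (18.9%, against 8.25% of all genes) and 3 with quantile normalization (8.11%, against 7.66%). Leaving out 1 library gave 19 without TG placebo replicate 1 (51.4%, against 18.8%), 2 without replicate 2 (5.41%, against 6.6%) and 3 without replicate 3 (8.11%, against 6.78%). Without TG NM-101 replicates 1, 2 and 3 it was 6, 4 and 4 (16.2%, 10.8% and 10.8%, against 9.33%, 9.62% and 5.96%). The share was near or below that of all genes with quantile normalization, without TG placebo replicate 2 or 3 and without TG NM-101 replicate 2. The median log2 difference of the 37 genes was 0.16, against 0.03 for all genes tested (0.10 with quantile normalization or without TG placebo replicate 3), and 33 of 37 differences were above 0 (89.2%, against 55.5%). The count above 0 was 28 with median-ratio scaling and 25 with quantile normalization. Groups did not overlap for 5 genes with higher values under NM-101 (13.5%, against 13.6% of all genes) and for 1 with lower values (2.70%, against 5.98%).

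**Figure D2:**
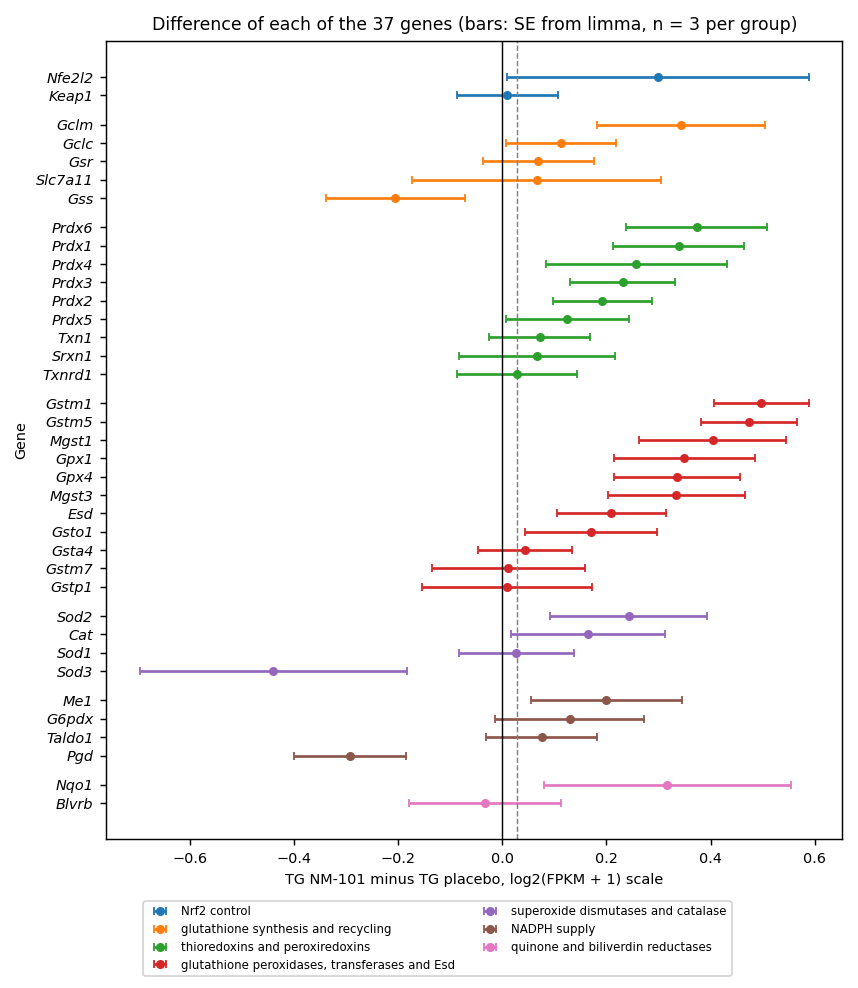
TG NM-101 minus TG placebo for each of the 37 genes on the log2(FPKM + 1) scale, grouped by role, with the standard error from limma (n = 3 per group); the dashed line is the median of all genes tested, 0.03. Gstm1 and Gstm5 lie farthest to the right, at 0.50 and 0.47, and Sod3 farthest to the left, at -0.44 (-0.17 without TG placebo replicate 1).

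Nfe2l2 and Keap1, the regulator and its inhibitor, gave no detectable difference. Nfe2l2 had values of 3.67, 2.71 and 3.16 in TG NM-101 libraries and 3.37, 2.74 and 2.53 in TG placebo libraries, on the log2(FPKM + 1) scale used for all TG levels here. Replicate 1 was the highest of each group, and the groups overlapped (difference 0.30 ± 0.29 SE, limma adjusted p = 0.650). The difference was 0.05 without TG NM-101 replicate 1 and 0.53 without replicate 2, and it was 0.55 without TG placebo replicate 1 and 0.12 without replicate 3. Keap1 had 4.79, 4.92 and 4.94 in TG NM-101 libraries and 4.96, 4.77 and 4.89 in TG placebo libraries. That is a difference of 0.01 ± 0.10 (SE), and its sign changed under both other scalings. Nfe2l2 lies on chromosome 2 from 75675513 to 75704663 and Keap1 on chromosome 9 from 21229730 to 21239332 (GRCm38).

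Keap1 was counted through 4 transcripts of nearly equal length, and only NM_001110305 had groups that did not overlap. It had 3.38, 3.32 and 3.47 in TG NM-101 libraries and 2.76, 2.48 and 2.71 in TG placebo libraries. NM_001110307 had 3.58, 4.10 and 3.84 in TG NM-101 libraries and 4.44, 4.09 and 4.42 in TG placebo libraries, and its groups overlapped. The groups of NM_016679 and of NM_001110306 overlapped too. The 4 transcripts are 3172 or 3151 bases long in the annotation. Libraries read from the 3′ end may not tell them apart, so the sum over the gene is used. Whether reads were assigned differently or transcripts were used differently was not tested. Transcripts of Txnrd1 varied within a group: its transcript NM_015762 had 0, 1.33 and 3.35 in the TG placebo libraries, while the gene's sum ran only from 4.03 to 4.29.

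Of the 5 genes that make and recycle glutathione, 4 had differences above 0 (80%, against 55.5% of all genes). The median was 0.07 (0.04 with median-ratio scaling, and 0.15 without TG placebo replicate 2 or without TG NM-101 replicate 2). At an unadjusted p under 0.05, 0 passed (against 10.7% of all genes higher and 4.17% lower). Gclm, the modifier subunit of the ligase that catalyses the rate-limiting step of glutathione synthesis, had 4.42, 4.00 and 4.32 in TG NM-101 libraries and 4.21, 3.80 and 3.70 in TG placebo libraries. The groups overlapped through TG placebo replicate 1, and the difference of 0.34 ± 0.16 (SE) had a limma adjusted p of 0.360. Gclc, the catalytic subunit of the same ligase, had 4.20, 4.04 and 4.11 in TG NM-101 libraries and 3.91, 4.14 and 3.97 in TG placebo libraries, a difference of 0.11 ± 0.11 (SE). Gss, which adds glycine in the final step, had 3.44, 3.20 and 3.18 in TG NM-101 libraries and 3.68, 3.35 and 3.41 in TG placebo libraries, the only member of the group with a negative difference (-0.21 ± 0.13, SE). Its transcript NM_001291111 varied within groups, with 0.002, 1.45 and 0 in TG NM-101 libraries and 2.23, 0 and 1.12 in TG placebo libraries. With the highest transcript per gene the difference of Gss was -0.09. Slc7a11 had 2.65, 1.70 and 2.43 in TG NM-101 libraries and 2.02, 2.37 and 2.20 in TG placebo libraries, and the NM-101 values spanned those of placebo, so that the sign of its difference (0.07) depended on the library left out. Gsr, which reduces oxidized glutathione with NADPH, differed by 0.07.

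Among thioredoxins and peroxiredoxins, all 9 differences were above 0 (100%, against 55.5% of all genes), from 0.03 to 0.37, with a median of 0.19. At an unadjusted p under 0.05, 3 were higher under NM-101 (33.3%, against 10.7%) and 0 were lower (against 4.17%). The median was 0.06 with quantile normalization and 0.11 without TG NM-101 replicate 2. The count of 3 was 0 with quantile normalization (against 7.66% of all genes) and without TG NM-101 replicate 1 (against 9.33%). It was also 0 without TG placebo replicate 2 or 3 (against 6.6% and 6.78%). Without TG NM-101 replicate 2 or 3 it was 1 (11.1%, against 9.62% and 5.96%). Without TG placebo replicate 1 it was 6 (66.7%, against 18.8%). With quantile normalization Txn1 and Prdx5 were below 0, at -0.04 and -0.01. With median-ratio scaling Txnrd1 was within rounding of 0 and on its negative side. Peroxiredoxins reduce hydrogen peroxide and depend on thioredoxin, except Prdx6, which uses glutathione. Prdx6 had 7.25, 7.00 and 6.93 in TG NM-101 libraries and 6.96, 6.55 and 6.56 in TG placebo libraries. TG placebo replicate 1 lay within the NM-101 range and replicates 2 and 3 below it (difference 0.37 ± 0.14 SE, limma adjusted p = 0.264). Prdx1, a cytosolic peroxiredoxin and Nrf2 target, had 7.12, 7.16 and 7.12 in TG NM-101 libraries and 7.09, 6.65 and 6.65 in TG placebo libraries. The groups did not overlap, but TG placebo replicate 1 lay only just below the NM-101 values (difference 0.34 ± 0.13 SE, limma adjusted p = 0.270).

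The mitochondrial Prdx3 had 5.66, 5.68 and 5.75 in TG NM-101 libraries and 5.64, 5.35 and 5.41 in TG placebo libraries, again with TG placebo replicate 1 just below the NM-101 values. Prdx2, the peroxiredoxin typical of neurons, had 7.98, 8.23 and 7.98 in TG NM-101 libraries and 7.90, 7.84 and 7.87 in TG placebo libraries, so that its groups did not overlap and TG placebo replicate 1 was close to the other placebo libraries. On the length-scaled log2(FPKM + 1) values, Prdx5 had the highest level of this group. It had 8.07, 8.25 and 8.09 in TG NM-101 libraries and 8.25, 7.88 and 7.90 in TG placebo libraries. TG placebo replicate 1 was as high as any NM-101 library. WT counts, which are not divided by length, put Prdx5 lower. Its mean was 145.9 CPM, below those of Prdx6 (281.2), Prdx2 (226.1) and Prdx1 (214.3). Prdx4, the peroxiredoxin of the endoplasmic reticulum, differed by 0.26. Txn1, Txnrd1 and Srxn1 had the smallest differences of the group, at 0.07, 0.03 and 0.07. Txnrd1, the reductase that keeps thioredoxin active, summed to 4.31, 4.07 and 4.12 in TG NM-101 libraries and 4.29, 4.03 and 4.09 in TG placebo libraries. Srxn1, which repairs overoxidized peroxiredoxins and is a standard Nrf2 target, had 4.86, 5.03 and 4.79 in TG NM-101 libraries and 5.17, 4.64 and 4.68 in TG placebo libraries, and its groups overlapped.

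**Figure D3:**
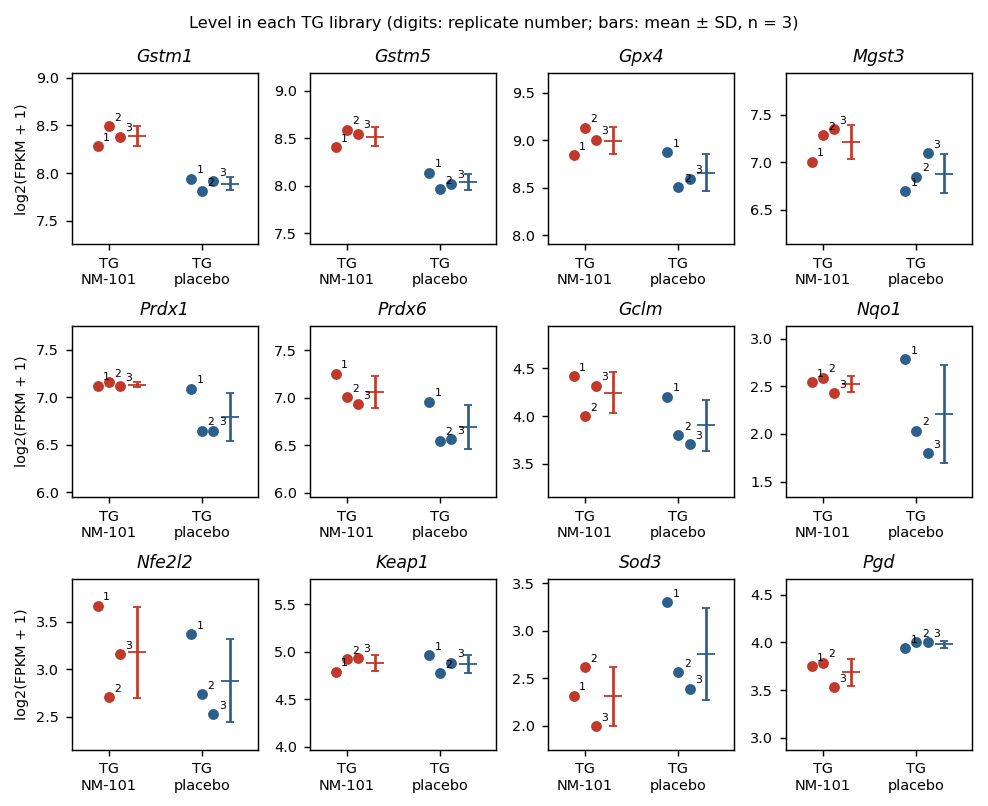
Level of 12 of the genes in each TG library on the log2(FPKM + 1) scale, with TG NM-101 left and TG placebo right; digits are replicate numbers and bars are mean ± SD (n = 3). In Prdx1, Prdx6, Gpx4, Gclm and Nqo1, TG placebo replicate 1 lies above replicates 2 and 3 and at or near the NM-101 values, while in Gstm1 and Gstm5 all 3 placebo libraries lie below all 3 NM-101 libraries.

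The group of glutathione peroxidases and transferases with Esd held the 3 largest differences of the 37. All 11 were above 0 (100%, against 55.5% of all genes), with a median of 0.33 and a range from 0.01 to 0.50. At an unadjusted p under 0.05, 6 were higher under NM-101 (54.5%, against 10.7%) and 0 were lower (against 4.17%). The group's median was 0.15 with quantile normalization. The count of 6 was 3 with quantile normalization (27.3%, against 7.66% of all genes). It was 2 without TG placebo replicate 2 or TG NM-101 replicate 2 (18.2%, against 6.6% and 9.62%). Without TG placebo replicate 3 or TG NM-101 replicate 3 it was 3 (27.3%, against 6.78% and 5.96%). The smallest differences, of Gstm7 and Gstp1, were below 0 under both other scalings, as was Gsta4 with quantile normalization. Gstm1 and Gstm5 are cytosolic transferases of the mu class, which conjugate glutathione to electrophiles. Gstm1 had 8.28, 8.49 and 8.38 in TG NM-101 libraries and 7.94, 7.81 and 7.92 in TG placebo libraries. Every NM-101 library was above every placebo library, by a 1.41-fold difference of the means (0.50 ± 0.09 SE on the log2 scale, limma adjusted p = 0.0823). Gstm5 had 8.40, 8.59 and 8.55 in TG NM-101 libraries and 8.14, 7.96 and 8.02 in TG placebo libraries. Its groups were also separate, by 1.39-fold (0.47 ± 0.09 SE, limma adjusted p = 0.0881).

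Not every mu-class gene of the cluster on chromosome 3 did this. Gstm5 lies there from 107895854 to 107898685, Gstm7 from 107926334 to 107931877 and Gstm1 from 108012250 to 108017973 (GRCm38). Gstm7 had 4.43, 4.59 and 4.56 in TG NM-101 libraries and 4.85, 4.39 and 4.30 in TG placebo libraries, with a difference of 0.01 ± 0.15 (SE). Outside the 37 genes, Gstm4 differed by 0.20, Gstm6 by 0.07 and Gstm2 by -0.33, each with an unadjusted p over 0.05, and the groups of Gstm4 did not overlap. The difference between Gstm1 and these paralogs was not tested. Reads of near-identical genes can be split by the counting program. Of the 50-base windows in the last 500 bases of Gstm1, 0.887% also occurred in an annotated transcript of another gene, Gstm3, and 0 of those of Gstm5 and Gstm7 did.

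Gpx4 had the highest level of its group, with 8.84, 9.13 and 9.01 in TG NM-101 libraries and 8.87, 8.51 and 8.60 in TG placebo libraries. TG placebo replicate 1 lay within the NM-101 range (difference 0.34 ± 0.12 SE, limma adjusted p = 0.262). Of its 50-base windows 87.7% also occurred in other annotated transcripts, Gpx4-ps2 among them, so its counts are uncertain. The same holds for Gstp1 (75.2%, shared with Gstp2 and Gstp-ps) and for Sod1 (30.2%), while no other member exceeded 5.54%. Gpx1, the main cytosolic glutathione peroxidase, had 6.17, 6.30 and 6.33 in TG NM-101 libraries and 6.23, 5.80 and 5.72 in TG placebo libraries. The microsomal transferases Mgst1 and Mgst3 differed by 0.40 and 0.33. Mgst3 had 7.00, 7.29 and 7.35 in TG NM-101 libraries and 6.69, 6.84 and 7.09 in TG placebo libraries, and here TG placebo replicate 3 was the high placebo library. Esd, which hydrolyses S-formylglutathione, differed by 0.21, Gsto1 by 0.17, Gsta4 by 0.04 and Gstp1 by 0.01.

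Of superoxide dismutases and catalase, 3 of 4 differences were above 0 (75%, against 55.5% of all genes), and 0 had an unadjusted p under 0.05. Their median of 0.10 was 0.006 with quantile normalization, 0.20 without TG placebo replicate 1, and 0.04 without replicate 2 or without replicate 3. The mitochondrial Sod2 had 5.58, 5.60 and 5.53 in TG NM-101 libraries and 5.70, 5.14 and 5.13 in TG placebo libraries, with TG placebo replicate 1 above all NM-101 libraries. The secreted Sod3 had 2.32, 2.62 and 2.00 in TG NM-101 libraries and 3.30, 2.56 and 2.39 in TG placebo libraries. Its difference of -0.44 ± 0.26 (SE, limma adjusted p = 0.442) was the most negative of the 37, and TG placebo replicate 1 was far above all others. Without that library the difference was -0.17, less negative than that of Pgd (-0.31), and it was -0.28 without TG NM-101 replicate 3. Sod1 had 8.65, 8.97 and 8.71 in TG NM-101 libraries and 8.85, 8.63 and 8.76 in TG placebo libraries, and its difference of 0.03 turned negative under both other scalings. Cat, the peroxisomal catalase, differed by 0.16.

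Of the 4 genes of NADPH supply, 3 had differences above 0 (75%, against 55.5% of all genes) and 1 below. Pgd, the phosphogluconate dehydrogenase of the pentose phosphate pathway, had 3.75, 3.79 and 3.53 in TG NM-101 libraries and 3.94, 4.00 and 4.00 in TG placebo libraries. It was the only gene of the 37 with every NM-101 library below every placebo library (difference -0.29 ± 0.11 SE, limma adjusted p = 0.270). G6pdx, the enzyme before Pgd in the pathway, had a difference of 0.13 with overlapping groups, Taldo1 one of 0.08 (-0.04 with quantile normalization) and the malic enzyme Me1 one of 0.20. Me1 had 4.77, 4.88 and 4.68 in TG NM-101 libraries and 4.91, 4.45 and 4.37 in TG placebo libraries. Taldo1 had 6.46, 6.36 and 6.22 in TG NM-101 libraries and 6.44, 6.19 and 6.19 in TG placebo libraries.

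Nqo1 had 2.54, 2.59 and 2.43 in TG NM-101 libraries and 2.78, 2.04 and 1.80 in TG placebo libraries. The NM-101 libraries lay close together (SD 0.08) and the placebo libraries apart (SD 0.52), with replicate 1 at the top (difference 0.32 ± 0.24 SE, limma adjusted p = 0.547, and a difference of 0.11 without TG placebo replicate 3). Blvrb, the biliverdin reductase that also reduces flavins, had 3.45, 3.82 and 3.37 in TG NM-101 libraries and 3.52, 3.47 and 3.76 in TG placebo libraries, and its groups overlapped.

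A further list of 69 Nrf2 and redox genes, none of them among the 37, was read from the same fit. Of these 62 were tested, 40 with a difference above 0 (64.5%, against 55.5% of all genes). Their median was 0.06, against 0.03 for all genes. None passed over all genes in limma. At an unadjusted p under 0.05 there were 10 with higher and 2 with lower values (16.1% and 3.23%, against 10.7% and 4.17% of all genes). The smallest p-values were those of Chac2, a glutathione-degrading enzyme, of Ftl1, the ferritin light chain, and of Gstk1, a mitochondrial and peroxisomal transferase. Chac2 had 3.82, 3.83 and 3.72 in TG NM-101 libraries and 3.41, 3.27 and 3.38 in TG placebo libraries (difference 0.43, limma adjusted p = 0.119). Ftl1 had 9.18, 9.15 and 9.13 in TG NM-101 libraries and 8.94, 8.66 and 8.81 in TG placebo libraries. Gstk1 had 3.96, 4.17 and 4.32 in TG NM-101 libraries and 3.73, 3.77 and 3.82 in TG placebo libraries. These 3 genes had separate groups, among 10 of the 62 with separate groups higher under NM-101 (16.1%, against 13.6% of all genes). Hmox1, heme oxygenase 1 and a standard Nrf2 target, had 2.31, 2.34 and 2.08 in TG NM-101 libraries and 1.92, 1.81 and 1.73 in TG placebo libraries, also without overlap (difference 0.42, limma adjusted p = 0.242). Fth1, the ferritin heavy chain, had 12.56, 12.62 and 12.56 in TG NM-101 libraries and 12.61, 11.66 and 11.68 in TG placebo libraries. Only TG placebo replicate 1 reached the NM-101 level. With quantile normalization the difference of Ftl1 fell from 0.35 to 0.11 and that of Fth1 from 0.60 to 0.34. Those of Hmox1, Chac2 and Gstk1 were then 0.47, 0.44 and 0.35.

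Among the 37 genes, the count of 9 at an unadjusted p under 0.05 changed with whichever library was left out. It rose to 19 without TG placebo replicate 1 and fell to between 2 and 6 without any other library. Taken as the median deviation from each gene's mean over the 6 TG libraries, the 37 genes lay at 0.07, 0.14 and 0.06 in the TG NM-101 libraries and at 0.10, -0.19 and -0.19 in the TG placebo libraries. Replicate 1 thus lay among the NM-101 libraries and replicates 2 and 3 below them. When NM-101 was set against TG placebo replicates 2 and 3 alone, 13 of the 37 genes were called higher (35.1%, against 9.60% of all genes) and 0 were called lower (against 8.17%). The 13 were Prdx1, Gpx1, Gstm5, Gstm1, Sod2, Prdx6, Nqo1, Mgst1, Gpx4, Gclm, Prdx3, Me1 and Prdx4. Nqo1 then had a difference of 0.61 (limma adjusted p = 0.0161, range 0.0161 to 0.934 over all 14 alternatives) and Prdx1 a difference of 0.48 (limma adjusted p = 0.00532, range 0.00532 to 0.662). Gstm1 differed by 0.52, close to its value with replicate 1 included (limma adjusted p = 0.00783, range 0.00783 to 0.479). Leaving out any other library gave 0 calls among the 37. TG placebo replicate 1 was the placebo library nearest to NM-101 on these same genes. Leaving it out raised their median difference from 0.164 to 0.245, and 2 placebo libraries remained. The 13 calls therefore describe the dependence on that library and are not a separate test of NM-101. TG placebo replicates 2 and 3 were the libraries high in nuclear-retained RNA, at 1138.8 and 1378.9 FPKM, where the TG NM-101 libraries had 307.3 to 397.2 FPKM, and the part of this in the 13 calls was not tested.

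Astrocyte markers moved with the groups as well. All 10 were higher under NM-101 (100%, against 55.5% of all genes). Of the 10, 1 was called higher, against 0.102% of all genes. Their summed level ran from 1722.1 to 1832.8 FPKM in TG NM-101 libraries and from 1217.3 to 1388.1 FPKM in TG placebo libraries. No astrocyte marker was at 0 in any TG library. The list was low in TG placebo replicate 1 too, with median deviations of 0.37, 0.15 and 0.20 in the TG NM-101 libraries and -0.18, -0.21 and -0.32 in the TG placebo libraries. The transcription factor Sox9 had 4.62, 4.54 and 4.61 in TG NM-101 libraries and 3.88, 3.89 and 3.70 in TG placebo libraries (limma adjusted p = 0.0425). With genes above 0 in all 6 samples or the replicate number as a block, 0 genes were called higher. The same held for limma without trend and robust and without any 1 of the TG NM-101 libraries. The call of Sox9 was thus lost in each of these settings. Gstm1 and Prdx6 are known to be enriched in astrocytes, and the part of the astrocyte markers in their values was not tested. Microglial markers summed to between 374.9 and 379.7 FPKM in TG NM-101 libraries and between 292.4 and 316.2 FPKM in TG placebo libraries. Among them 8 of 10 were higher (80%, against 55.5% of all genes). Endothelial and mural markers had differences below 0 in 10 of 10, against 5652 of all 12699 genes. They summed to 75.5 to 83.2 FPKM in TG NM-101 libraries and 83.3 to 112.9 FPKM in TG placebo libraries. Neuronal markers overlapped, at 2839.7 to 3236.2 FPKM in TG NM-101 libraries and 2996.3 to 3370.3 FPKM in TG placebo libraries.

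**Figure D4:**
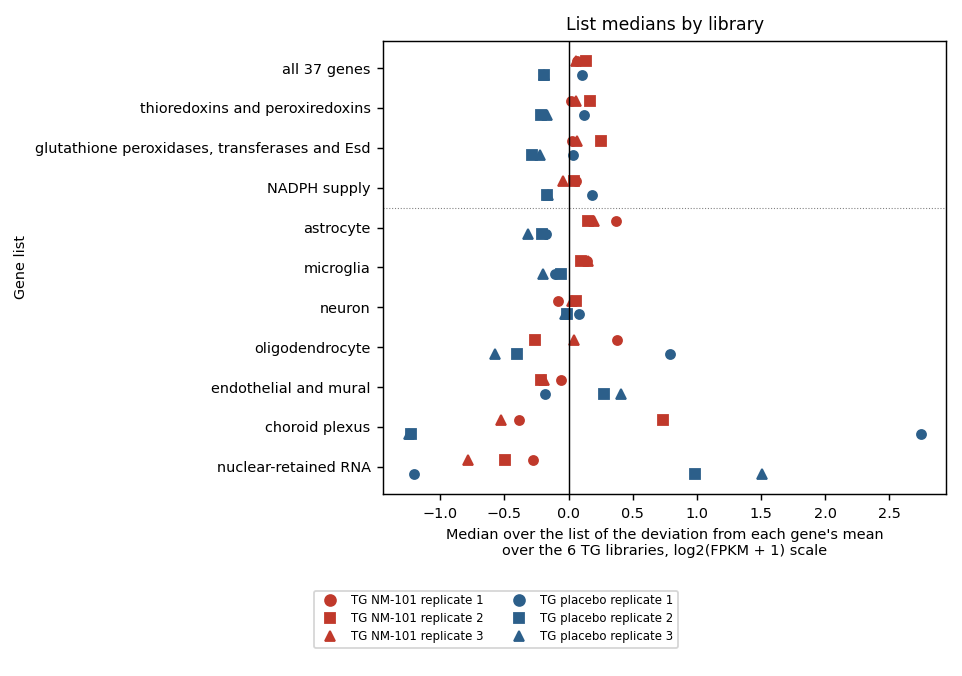
For each gene list, the median over its tested genes of the deviation from the gene's mean over the 6 TG libraries, on the log2(FPKM + 1) scale; red is TG NM-101, blue is TG placebo and marker shapes are replicates. TG placebo replicate 1 (blue circles) lies at 0.10 for the 37 genes, beside the NM-101 libraries, but at -0.18 for astrocyte markers, beside the other placebo libraries.

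Set beside the WT libraries, the TG groups could be described but not tested, because the columns were normalized separately. For WT, CPM per kilobase of annotated transcript was computed from the counts and written as log2(RPKM + 1). Between TG NM-101 and WT the median difference of the 37 genes was 0.13, against 0.05 for all 12410 genes, and 26 of 37 differences were above 0 (70.3%, against 59.4%). Of the 37, 15 lay above all WT libraries (40.5%, against 23.5% of all genes) and 4 below (10.8%, against 13.1%). Between TG placebo and WT the median was -0.04, against 0.05 for all genes, and 16 of 37 differences were above 0 (43.2%, against 56.4%), with 9 genes above all WT libraries (24.3%, against 20.8%) and 5 below (13.5%, against 15.9%). Both comparisons use the same WT libraries. In both, the genes above all WT libraries include Gclm, Prdx5, Mgst3, Sod3 and Prdx2, whose gaps depend on the transcript length used for WT. Under NM-101 they also include G6pdx and Gstm7, which cleared the WT libraries by only 0.017 and 0.018. The median for TG placebo changed sign with the library left out, at 0.03 without TG placebo replicate 2 and 0.01 without replicate 3, and it was -0.09 without replicate 1.

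The widest gaps to WT were those of Gclm, Prdx5, Mgst3, Sod3 and Prdx2, and each held for both TG groups. Gclm had a mean of 4.24 in TG NM-101 libraries and 3.90 in TG placebo libraries, against 2.60 in WT libraries. Prdx5 had 8.13 in TG NM-101 libraries and 8.01 in TG placebo libraries, against 6.86 in WT libraries. Mgst3 had 7.21 in TG NM-101 libraries and 6.88 in TG placebo libraries, against 6.06 in WT libraries. Such a gap depends on the length used for WT. Gclm is 5589 bases long in the annotation, and a length of 1761 bases would bring WT and TG to the same level. For Prdx5 the lengths are 1262 and 541 bases, for Sod3 3738 and 1462, for Mgst3 1097 and 547, and for Prdx2 1500 and 903. The length the authors used is not given in the sources used here, so a difference of genotype and a difference of length cannot be told apart for these genes.

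Keap1, Nfe2l2, Gstm1 and Gstm5 lay closer to WT. Keap1 averaged 4.88 ± 0.08 in TG NM-101 libraries and 4.87 ± 0.10 in TG placebo libraries, against 4.92 ± 0.07 in WT libraries (SD, n = 3 each). Nfe2l2 averaged 3.18 ± 0.48 in TG NM-101 libraries and 2.88 ± 0.44 in TG placebo libraries, against 2.97 ± 0.10 in WT libraries (SD, n = 3 each). Gstm1, at 8.39 ± 0.10 in TG NM-101 libraries and 7.89 ± 0.07 in TG placebo libraries, had a WT mean of 7.84 ± 0.13 (SD, n = 3 each). Its NM-101 values lay above all WT libraries, and its placebo values overlapped them. The same held for Gstm5, with 8.51 ± 0.10 in TG NM-101 libraries and 8.04 ± 0.09 in TG placebo libraries, against 8.18 ± 0.18 in WT libraries (SD, n = 3 each). Under NM-101, Gstm1 cleared the WT libraries by 0.32 and Gstm5 by only 0.082. The place of both genes beside WT depends on the length used for WT. Esd, Txn1, Txnrd1 and Prdx3 lay below all WT libraries in both TG groups, with differences from -0.29 to -0.12 under NM-101 and from -0.42 to -0.27 under placebo. The share of the 37 below WT was under that of all genes in both groups (10.8% against 13.1%, and 13.5% against 15.9%). Under NM-101 the gaps to the nearest WT library were small, from -0.046 for Txnrd1 to -0.015 for Prdx3. They depend on the length used for WT as well.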

How the data were processed

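The table holds 33299 RefSeq transcripts in 9 samples. The authors deposited whole-number counts for WT. For TG they deposited log2 values, taken here as log2(FPKM + 1), since the linear values had a slope of 1.01 on WT CPM and of -0.863 on transcript length, both on log2 axes. Per the submitters' processing notes, Bowtie2 and mm10 were used. The counting program is not given in the sources used here. Intervals of depth cannot be given for the TG values, whose depth is known only from steps (82.9% to 85.6% of low values lay within 0.2 of a whole number).

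RefSeq GRCm38.p6 named 32394 transcripts, which were summed per gene on the linear scale. Genes with a mean log2(FPKM + 1) of at least 1 over the 6 TG samples were tested with limma 3.58.1 in R 4.3.3 (trend, robust), and p-values were adjusted over all 12699 genes. Fold changes on this scale, with a pseudocount of 1, understate the change of low genes. WT levels used lengths from GENCODE M21. The procedure was tested on simulated data. All 37 genes passed the level filter. Values are given for the members with the smallest p and the highest level in each of 7 role groups, for 8 fixed members, and for the 5 widest gaps to WT, with Hmox1, Ftl1, Fth1 and the 3 smallest p of the further list. Others were named after their values were seen. Members and lists were chosen with earlier results of these data known.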

Additional observations from a re-analysis of the deposited data

How the results depend on the processing

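The number of genes called between TG NM-101 and TG placebo, 17 as reported, was 4 with no filter on low values, 0 with genes above 0 in all 6 samples (limma, 1894 at an unadjusted p under 0.05), 4 with median-ratio scaling, 7 with quantile normalization, 7 with the highest transcript per gene and 4 with limma's shrinkage without trend and robust. Leaving out 1 library gave 2 to 2262 calls, the highest without TG placebo replicate 1, and 0 to 13 calls among the 37 genes. Every other alternative gave 0 calls among the 37. Their median difference stayed above 0 in all 14 alternatives, from 0.097 to 0.245. The median of all genes was also above 0 in each, from 0.003 to 0.035. Of the 37 genes, 25 kept their sign in every alternative. The median of TG NM-101 against WT was 0.062 with median-ratio scaling and 0.207 with single-transcript genes. With the replicate number as a block, 3 genes were called and 0 of the 37. Same-numbered samples did not deviate together (correlations of 0.04, -0.03 and -0.02). That shows no shared deviation by number, but it cannot exclude that the samples were paired. The depth of the TG values is known only from their steps, so no counting error can be given for them.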
